A study of Mus musculus with 12 samples.

Results

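Glutathione transferases join the tripeptide glutathione to electrophilic compounds, and among their substrates is busulfan, a bifunctional alkylating drug used to deplete bone marrow and germ cells. The 8 genes described here encode 4 soluble enzymes of the alpha class (Gsta1, Gsta2, Gsta3 and Gsta4) and 4 membrane-bound enzymes of the family that holds the microsomal transferases (Mgst1, Mgst2, Mgst3 and Ltc4s). They were chosen by gene symbol from the 21004 genes of the deposited table, with earlier results of these data known. In the kidney libraries that received busulfan without L.J., 7 of the 8 were at or above 5.93 FPKM (fragments scaled to transcript length and library size), and the eighth, Mgst2, did not exceed 0.42 FPKM in any library.

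The study sequenced kidney RNA from ICR mice, an outbred strain, at 8 weeks of age. Its 4 groups of 3 libraries received busulfan, busulfan plus L.J. at 10 mg/kg, L.J. alone at 10 mg/kg, or neither (control). The labels expand L.J. nowhere, and the design text speaks of FMT effects on the kidney damaged by busulfan. They give neither the sex of the mice nor the dose or timing of busulfan, and they do not say that replicates are separate animals, so that p-values measure the spread between libraries, which may be technical.

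The soluble alpha-class enzymes work as dimers in the cytosol and in the kidney are best known from the proximal tubule, where they conjugate electrophiles and reduce lipid hydroperoxides. The microsomal enzymes sit in the endoplasmic reticulum or outer mitochondrial membrane, and some of them join glutathione to leukotriene A4, which gives the inflammatory mediator leukotriene C4. Several genes of both families are known targets of the transcription factor NRF2, which binds antioxidant response elements, and alpha-class genes are also known targets of the aryl hydrocarbon receptor, which binds xenobiotic response elements.

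Gsta4, Gsta1 and Gsta2 lie in 1 cluster on mouse chromosome 9 (RefSeq, GRCm38.p6). Gsta4 spans chr9:78191966-78209349, Gsta1 chr9:78230669-78242683 and Gsta2 chr9:78331018-78347192. Between Gsta1 and Gsta2 the annotation holds a further pair of protein-coding genes, Gm3776 at chr9:78257129-78269166 and Gm10639 at chr9:78289928-78305525. The other members are apart from this cluster: Gsta3 at chr1:21240565-21265575, where it overlaps Gm28836, Mgst3 at chr1:167371966-167393841, Mgst2 at chr3:51636912-51682675, where it overlaps Gm38247, Mgst1 at chr6:138140527-138156755 and Ltc4s at chr11:50236461-50238532.

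The promoters of the 4 members with the largest spread between group means are printed to show which letters their start sites share. Each runs 5′ to 3′ on the gene's own strand from 250 bases before to 10 bases after a RefSeq start site (GRCm38.p6). They are chr9:78230419-78230678 on the plus strand for Gsta1, chr9:78347136-78347395 on the minus strand for Gsta2, chr1:21240335-21240594 on the plus strand for Gsta3, and chr6:138140277-138140536 on the plus strand for Mgst1, for which a second start site is annotated. Capitals mark matches on either strand to the core of the antioxidant response element (TGACNNNGC) or of the xenobiotic response element (GCGTG).
Gsta1: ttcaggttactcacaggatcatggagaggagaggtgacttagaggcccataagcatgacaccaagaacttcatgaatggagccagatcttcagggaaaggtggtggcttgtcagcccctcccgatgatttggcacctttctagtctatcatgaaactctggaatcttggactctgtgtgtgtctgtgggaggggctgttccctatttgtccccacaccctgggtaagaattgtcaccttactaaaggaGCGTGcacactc
Gsta2: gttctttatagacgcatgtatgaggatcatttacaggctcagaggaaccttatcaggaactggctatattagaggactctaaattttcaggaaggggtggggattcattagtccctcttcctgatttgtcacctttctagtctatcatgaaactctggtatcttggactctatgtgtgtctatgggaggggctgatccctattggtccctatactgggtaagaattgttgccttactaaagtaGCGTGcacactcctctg
Gsta3: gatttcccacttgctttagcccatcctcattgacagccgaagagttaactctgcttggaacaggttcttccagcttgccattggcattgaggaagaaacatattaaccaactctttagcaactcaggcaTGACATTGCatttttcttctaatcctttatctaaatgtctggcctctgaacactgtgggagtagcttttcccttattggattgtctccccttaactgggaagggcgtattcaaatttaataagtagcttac
Mgst1: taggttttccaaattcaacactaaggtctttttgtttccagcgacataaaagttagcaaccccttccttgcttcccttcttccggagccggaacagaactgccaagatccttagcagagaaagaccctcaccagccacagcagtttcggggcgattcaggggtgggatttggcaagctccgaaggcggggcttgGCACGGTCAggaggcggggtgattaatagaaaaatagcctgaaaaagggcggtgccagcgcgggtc
The start sites used for Gsta1 and Gsta2 stand beside the same letters. The xenobiotic core begins 2 bases before the start in Gsta1 and 7 bases before it in Gsta2. For Gsta2, Gsta3 and Mgst2 the start site used lies inside the annotated gene span and not at its 5′ end. Distances hold for the start site used only. The antioxidant core begins 121 bases before the start in Gsta3 on its coding strand and 56 bases before it in Mgst1 on the opposite strand. A promoter window was matched for 7 of the 8 members, and among the remaining windows that of Mgst3 held a xenobiotic core 22 bases before the start, while those of Mgst2 and Ltc4s and the second window of Mgst1 held neither core. Of 32851 mouse promoter windows of 300 bases, 12.4% held the antioxidant core and 32.4% the xenobiotic core, so that such matches are common and describe the letters only. Aligned over 300 bases, the Gsta1 window was 74.6% identical to that of Gsta2 and 51.2% identical to that of Gsta3.

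Gsta1 and Gsta2 also share most of their transcripts, which bears on how far their values are separate measurements. The longest annotated transcripts of Gsta1 and Gsta2, of 875 and 870 bases, were 96.7% identical. Of the windows of 50 bases in the Gsta1 transcript, 89.7% occurred exactly in another gene's transcript, mainly in that of Gm3776, which was 99.4% identical to Gsta1. For Gsta2 the share was 64.2%. The other 6 members shared none. How reads that fit several genes were assigned is not given in the sources used here, so the split of reads among Gsta1, Gsta2, Gm3776 and Gm10639 is uncertain. Nor is it given whether strand was used, so reads of Gsta3 and Mgst2 may include some of the genes that overlap them.

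**Figure D1:**
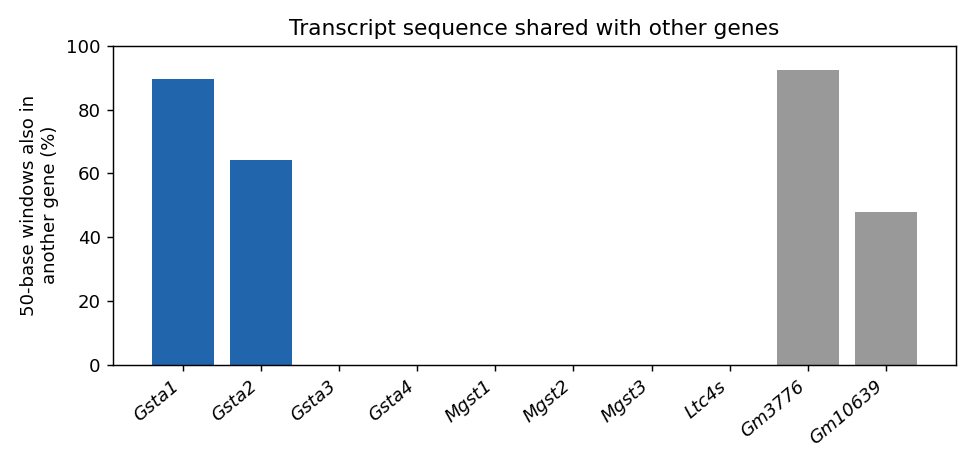
Share of 50-base windows of the longest annotated transcript of each member (blue bars) and of Gm3776 and Gm10639 (grey bars; vertical axis, percent) that occurred exactly in the transcript of another gene. Gsta1 stood at 89.7% and Gsta2 at 64.2%, the other 6 members at 0.0%, Gm3776 at 92.5% and Gm10639 at 48.0%.

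The members were unevenly abundant. Averaged over the 12 libraries, Mgst3 was the most abundant at 78.1 FPKM and ranked 1050 among the genes of the table. Mgst1 followed at 41.8 FPKM, Gsta2 at 37.9, Gsta3 at 27.1, Gsta4 at 18.3, Ltc4s at 8.72, Gsta1 at 4.56 and Mgst2 at 0.14. In the control libraries, which lack the rise described next, Mgst1 (25.8 ± 1.53 FPKM), Gsta2 (24.6 ± 14.3) and Gsta3 (22.8 ± 3.45) did not differ beyond their spread (SD, n = 3 each). The summed FPKM of the 8 members was 394.9, 530.1 and 221.5 in the busulfan libraries, 149.2, 156.8 and 200.3 in the busulfan plus L.J. libraries, 124, 160.9 and 170.9 in the L.J. alone libraries, and 147.7, 159 and 185 in control libraries.

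The first comparison, busulfan against control, asks what the drug did to the kidney. Gsta1, Gsta3, Mgst1 and Ltc4s rose under busulfan, and no member fell. Differences were tested on log2(FPKM + 1) with limma over all 12 libraries, among 12281 genes that reached 1 FPKM in at least 3 libraries, and a gene was called at a Benjamini-Hochberg adjusted p under 0.05. Of the 8 members 7 entered this test and 4 were called, all higher. Over all tested genes 177 were called (1.44%), of which 89 were higher (0.725%). The 7 members had a median log2 change of 1.15, against 0.083 over all tested genes. Because the members were chosen with earlier results of these data known, this contrast is not independent evidence. The log2(FPKM + 1) scale understates the change of low genes such as Gsta1. In whole tissue, more RNA per cell and more cells of a type cannot be told apart. Where groups are said below not to overlap, this describes 3 libraries against 3. The share of all tested genes that separate in this way was not counted, so it is no evidence about the members.

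Among the soluble enzymes, Gsta1 is the form whose human counterpart is best known for conjugating busulfan. It measured 13.82, 11.51 and 5.93 FPKM in the busulfan libraries, against 1.77, 2.11 and 4.29 FPKM in the control libraries. All busulfan values lay above all control values, and the third busulfan library was the lowest of its group. The log2 change was 1.61 (SE 0.338, adjusted p = 0.0472, limma).

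Gsta3, which in mice is known for detoxifying the epoxide of aflatoxin, shares no 50-base window with another transcript. Its values were 45.65, 69.83 and 34.64 FPKM with busulfan and 18.82, 25.10 and 24.43 FPKM in controls. The groups did not overlap, and the third busulfan library again stood nearest to the controls. Its change was 1.05 on the log2 scale (SE 0.230, adjusted p = 0.0492, limma).

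Gsta2, the close copy of Gsta1, had a change of similar size that missed the threshold. It measured 96.61, 97.76 and 32.17 FPKM with busulfan and 13.66, 19.42 and 40.83 FPKM in controls, so the third busulfan library lay below the highest control library. The log2 change was 1.56 with a 95% confidence interval of 0.400 to 2.72 (adjusted p = 0.122, limma). Control libraries alone spanned 13.66 to 40.83 FPKM, a wider spread relative to the mean than for any other tested member in controls. Summed over Gsta1, Gsta2, Gm3776 and Gm10639, which hold most of each other's shared windows, the level was 121.6, 132.2 and 42.56 FPKM with busulfan and 17.8, 23.55 and 50.68 FPKM in controls. Gsta2 made up 73.95% to 84% of this sum in every library. The sum thus showed the same overlap as Gsta2. Gm10639 by itself measured 11.19, 21.91 and 4.20 FPKM with busulfan and 2.37, 2.02 and 5.56 FPKM in controls (log2 change 1.48, adjusted p = 0.118, limma), and Gm3776 was listed at 0 in every control library.

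Gsta4, the form specialised for 4-hydroxynonenal and other products of lipid peroxidation, was the tested member with the smallest difference. Its values were 28.78, 34.84 and 18.36 FPKM with busulfan and 15.63, 15.45 and 19.79 FPKM in controls. The groups overlapped through the third busulfan library. This is a log2 change of 0.62 with a 95% confidence interval of -0.0186 to 1.26 (adjusted p = 0.232, limma).

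Among the membrane enzymes, Mgst1 is a detoxifying transferase and peroxidase of the endoplasmic reticulum and outer mitochondrial membrane. It measured 78.92, 136.64 and 41.76 FPKM with busulfan and 26.65, 26.79 and 24.07 FPKM in controls. The control libraries lay close together and every busulfan library lay above them. Its change was 1.54 on the log2 scale (SE 0.333, adjusted p = 0.0486, limma).

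Mgst3, the most abundant member, encodes an enzyme with peroxidase and leukotriene C4 synthase activity. Its values were 118.20, 163.19 and 76.54 FPKM with busulfan and 63.82, 66.14 and 65.91 FPKM in controls. The groups did not overlap, but the third busulfan library was little above the controls. The log2 change of 0.79 had a 95% confidence interval of 0.262 to 1.33 and did not pass the threshold (adjusted p = 0.0971, limma).

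Ltc4s, leukotriene C4 synthase, is the dedicated enzyme for that mediator and is best known from mast cells, eosinophils and macrophages. It measured 12.75, 16.38 and 11.68 FPKM with busulfan and 7.32, 4 and 5.64 FPKM in controls. It was the member in which the third busulfan library stood closest to the other 2. The log2 change was 1.15 (SE 0.207), with the smallest adjusted p of the members (0.0364, limma).

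Mgst2, which makes leukotriene C4 outside blood cells, was near the limit of the table. Its values were 0.15, 0 and 0.42 FPKM with busulfan and 0 FPKM in each control library. It was also listed at 0.39, 0 and 0.07 FPKM with busulfan plus L.J. and at 0.16, 0.37 and 0.12 FPKM with L.J. alone. It did not pass the filter on low values and has no fold change here.

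**Figure D2:**
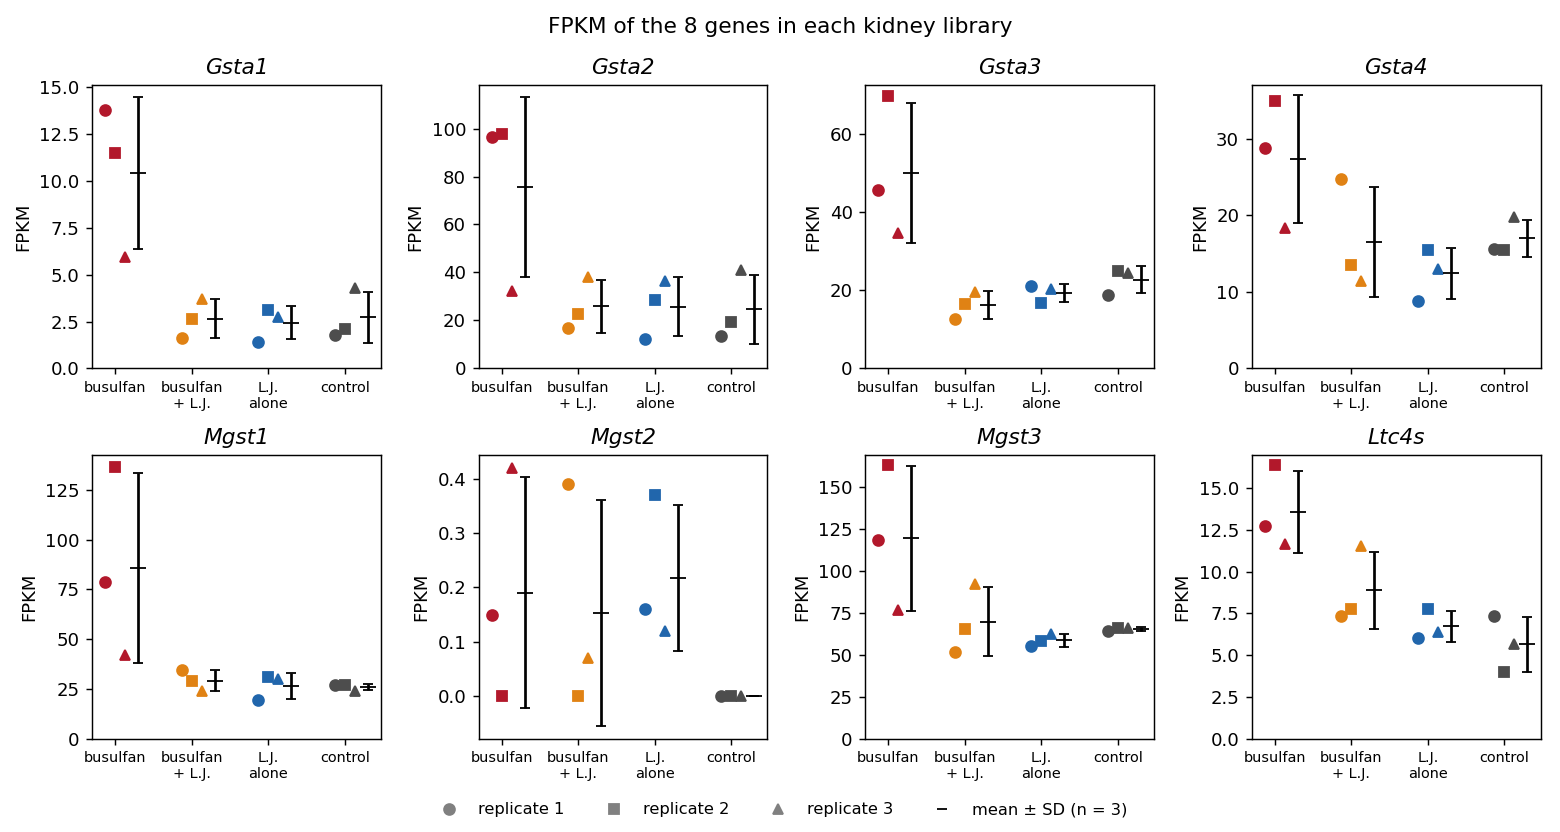
FPKM of each member (vertical axes, linear, one panel per gene) in each library of the 4 groups, as points with the group mean and SD (n = 3 each). The busulfan libraries of Gsta1, Gsta3, Mgst1 and Ltc4s lie above all libraries of the other groups, and Mgst2 stays at or below 0.42 FPKM. For Ltc4s the lowest busulfan library (11.68 FPKM) was barely above the highest busulfan plus L.J. library (11.55 FPKM). How many of all tested genes separate in this way was not counted.

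The busulfan libraries differed among themselves in how far they lay above the control mean, also for members that did not pass the test. Relative to the control mean on the log2(FPKM + 1) scale, the first busulfan library was higher by 2.05 for Gsta1, 2.07 for Gsta2 and 1.58 for Mgst1. The second was higher by 1.81, 2.09 and 2.36 for these genes, and the third by 0.956, 0.514 and 0.674. For Ltc4s the 3 deviations lay closer together, at 1.08, 1.42 and 0.961. The third library was the lowest of its group for each of the 7 tested members.

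**Figure D3:**
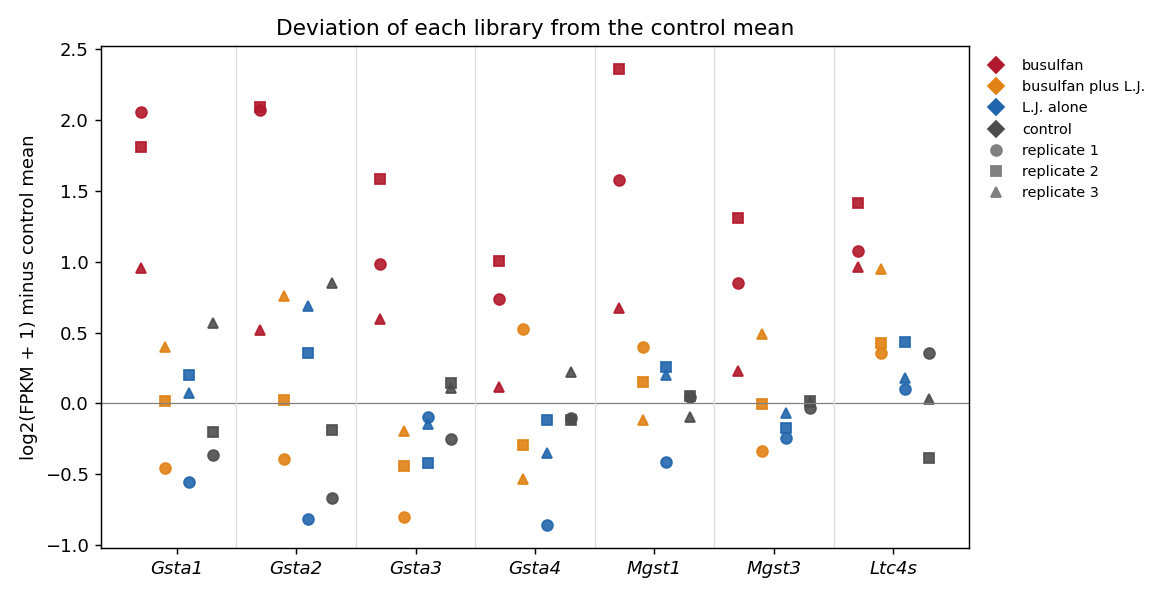
Deviation of each library from the control mean on the log2(FPKM + 1) scale for the 7 tested members (horizontal axis), with colours for the 4 groups and a marker shape for each replicate. In the third busulfan library the deviation was 0.956 for Gsta1, 0.514 for Gsta2 and 0.674 for Mgst1, below that of the other 2 busulfan libraries.

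This library stood apart across the whole table too. On the first principal component, which held 41.8% of the variance, the first 2 busulfan libraries lay at -40.4 and -47.3, and the third at 10.5, among the other groups (1.85 to 16.9). Across genes, its deviation from the mean level had a Spearman's rho of -0.528 with transcript length, where the remaining libraries ranged from -0.071 to 0.318. Its rho with GC content was 0.380, where theirs ranged from -0.299 to 0.137. Sequencing depth is unknown, because the table holds FPKM values and no read totals. Without this library all 7 tested members were called higher under busulfan, but so were 24.4% of all tested genes, and 32.5% were called in either direction. The members then had log2 changes from 0.87 for Gsta4 to 2.08 for Gsta2, with limma's adjusted p from 0.000443 for Mgst1 to 0.0417 for Gsta4.

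The 4 calls were close to the threshold and depended on single libraries. Leaving out any 1 of 9 libraries left no member called, namely the first and second busulfan libraries, the second busulfan plus L.J. library and each L.J. alone and control library. In these 9 fits 0 to 7 of all tested genes were called, so nearly all other calls were lost too. Without the first busulfan plus L.J. library Gsta1 and Ltc4s were called among 146 genes (1.19%), and without the third Ltc4s was the only member called among 37 genes (0.301%). No member was called when levels were corrected for length and GC content, when only the 6 libraries compared were fitted, or without the filter on low values. With quantile normalization the same 4 were called among 503 genes (4.1%). With 0.1 in place of 1 added to FPKM, Gsta3, Mgst1 and Ltc4s were called among 200 genes (1.63%). Gsta1 was then lost (adjusted p = 0.0516, limma). The direction was the same in every fit: over all settings tried, the log2 change was 1.38 to 2.04 for Gsta1, 0.789 to 1.28 for Gsta3, 1.12 to 1.97 for Mgst1 and 0.823 to 1.33 for Ltc4s.

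Ltc4s, the shortest of the tested transcripts (716 bases) and the richest in GC (61.0%), was the tested member whose values followed the trend with length and GC content most. The fitted trend added 0.211, 0.295 and 0.258 to its log2 level with busulfan. In the remaining 9 libraries it added -0.137 to -0.030. With the correction its log2 change was 0.82 (SE 0.192, adjusted p = 0.0974, limma). For Gsta3 the correction left the change at 1.01 and for Mgst1 at 1.45 (log2), with adjusted p of 0.101 and 0.0871 (limma).

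The second comparison, busulfan plus L.J. against busulfan, asks whether L.J. altered the kidney that received busulfan. Gsta1, Gsta3 and Mgst1 were lower with L.J., and no member was higher. Of the 7 tested members 3 were called, all lower, where 398 of all tested genes were called (3.24%) and 253 of them were lower (2.06%). The busulfan libraries are the same as in the first comparison, so the 2 sets of values are not independent.

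Gsta3 had the largest decrease relative to its error. It measured 12.56, 16.39 and 19.63 FPKM with busulfan plus L.J. and 45.65, 69.83 and 34.64 FPKM with busulfan. The groups did not overlap. The log2 change was -1.53 (SE 0.230, adjusted p = 0.0174, limma), and Gsta3 was called in 9 of the 12 fits that left out a library. It was lost without the first busulfan library or without the second or the third busulfan plus L.J. library, with adjusted p of up to 0.074 (limma).

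Gsta1 measured 1.61, 2.62 and 3.70 FPKM with busulfan plus L.J. and 13.82, 11.51 and 5.93 FPKM with busulfan. Mgst1 measured 34.36, 28.70 and 23.77 FPKM with busulfan plus L.J. and 78.92, 136.64 and 41.76 FPKM with busulfan. In both genes the groups were separate, with the highest busulfan plus L.J. library below the third busulfan library. The log2 change was -1.62 for Gsta1 (SE 0.338, adjusted p = 0.0421, limma) and -1.39 for Mgst1 (SE 0.333, adjusted p = 0.0491, limma). Of the 12 fits that left out a library, both were called only in that without the third busulfan library, where all 7 tested members were lower and 31.6% of all genes were called.

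The other tested members did not pass the threshold. Gsta2 measured 16.70, 22.60 and 38.20 FPKM with busulfan plus L.J. and overlapped with busulfan (log2 change -1.43, 95% confidence interval -2.59 to -0.27, adjusted p = 0.140, limma). Mgst3 measured 51.54, 65.18 and 92.08 FPKM, with an overlap through the third library (-0.74, -1.28 to -0.21, adjusted p = 0.103). Gsta4 measured 24.72, 13.54 and 11.35 FPKM, with an overlap through the first library (-0.72, -1.36 to -0.08, adjusted p = 0.169). Each of these intervals lies below 0, while the adjusted p did not pass.

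For Ltc4s the busulfan plus L.J. libraries stood between the other two groups. Its values there were 7.35, 7.77 and 11.55 FPKM, all below the busulfan libraries (11.68 to 16.38 FPKM) and all above the control libraries (4 to 7.32 FPKM). The log2 change against busulfan was -0.57 (95% confidence interval -1.03 to -0.12, adjusted p = 0.13, limma). Against control it was 0.58 (0.124 to 1.03, unadjusted p = 0.0169, adjusted p = 0.9997, limma), so neither difference passed after adjustment.

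**Figure D4:**
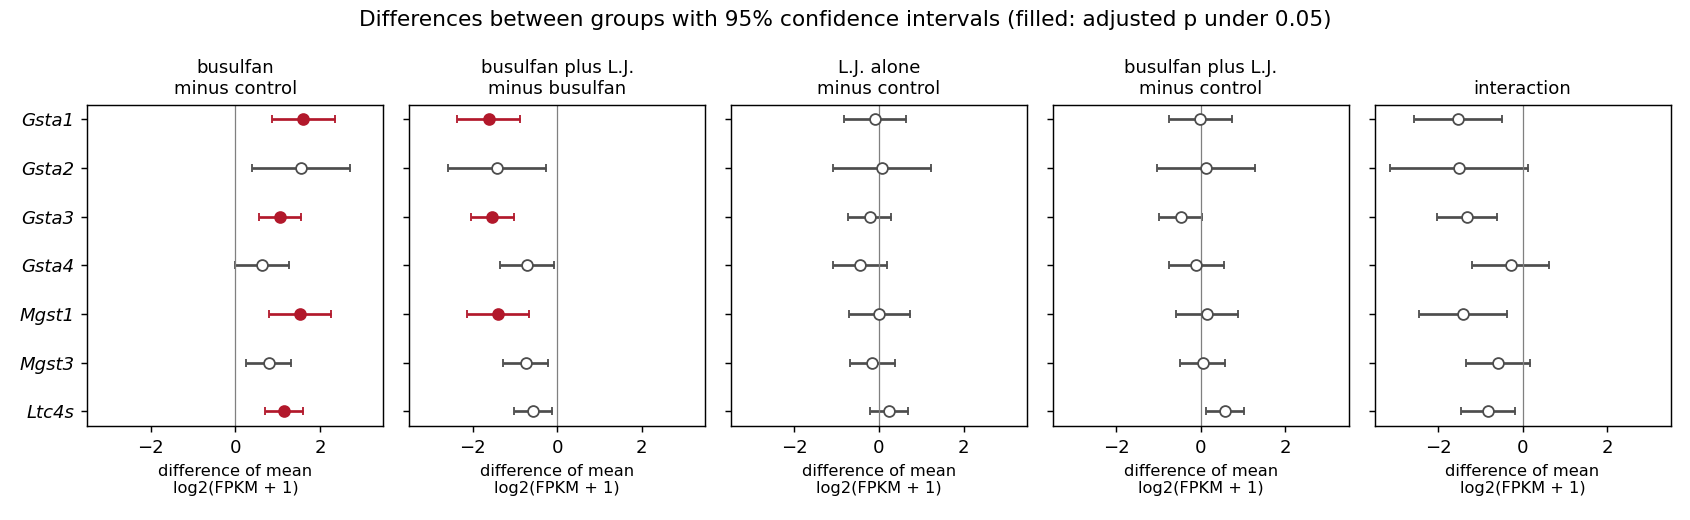
Log2 change of the 7 tested members (horizontal axis, log2 of FPKM + 1) with 95% confidence intervals from limma, in the comparisons of busulfan with control, busulfan plus L.J. with busulfan, L.J. alone with control and busulfan plus L.J. with control, and in the interaction (filled red points: adjusted p under 0.05). The changes under busulfan run from 0.62 for Gsta4 to 1.61 for Gsta1, and those of busulfan plus L.J. against busulfan from -1.62 for Gsta1 to -0.57 for Ltc4s.

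L.J. alone against control, which asks what L.J. did without busulfan, gave no call among the members. None of the 12281 tested genes was called either by limma (0%), with 337 at an unadjusted p under 0.05. Gsta1 measured 1.43, 3.11 and 2.76 FPKM with L.J. alone, Gsta3 21.11, 16.67 and 20.36 FPKM, Mgst1 19.13, 30.97 and 29.73 FPKM and Ltc4s 6, 7.79 and 6.37 FPKM. These values overlap with the control libraries for all 4 genes. Gsta4 had the largest log2 difference, -0.44, with a 95% confidence interval of -1.08 to 0.198. The interval for Gsta1, -0.834 to 0.648, and that for Mgst1, -0.717 to 0.742, span 0 widely on both sides, so differences inside them were not detectable with 3 libraries a group. The remaining values were 12.20, 28.70 and 36.31 FPKM for Gsta2, 8.86, 15.45 and 13.01 FPKM for Gsta4 and 55.09, 57.83 and 62.27 FPKM for Mgst3. For Mgst3 all lay below the control libraries, by -0.16 on the log2 scale (-0.692 to 0.372).

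Busulfan plus L.J. against control gave no call among the 7 tested members, and 1 gene in all (0.00814%), with 352 at an unadjusted p under 0.05. The log2 differences were -0.01 for Gsta1 (95% confidence interval -0.754 to 0.729), 0.14 for Mgst1 (-0.585 to 0.874) and -0.48 for Gsta3 (-0.982 to 0.025). The first and second busulfan plus L.J. libraries had less Gsta3 than the lowest control library, and the third, at 19.63 FPKM, lay within the control range. A miss of the threshold does not show that these levels were equal to those of controls.

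Whether the effect of busulfan differed with L.J. present was tested as the interaction of the 2 treatments. No member was called, and 2 of all tested genes were (0.0163%), with 1437 at an unadjusted p under 0.05. The interaction was -1.31 for Gsta3 (log2, SE 0.325, adjusted p = 0.244, limma), -1.53 for Gsta1 (adjusted p = 0.30) and -1.40 for Mgst1 (adjusted p = 0.314). It was smaller for Mgst3 (-0.58, adjusted p = 0.545) and Gsta4 (-0.28, adjusted p = 0.833). Without the third busulfan library Gsta1, Gsta3 and Mgst1 were called in this test, as were 1489 of all tested genes (12.1%).

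Other enzymes of the glutathione pathway were described by 5 gene lists. Of 16 other soluble glutathione transferases (mu, pi, theta and further classes) 13 were tested, and none rose or fell under busulfan. Their median log2 change was 0.475, against 0.083 over all tested genes. With busulfan plus L.J. against busulfan 3 of them fell and the median was -0.641, against -0.087 over all genes. Gstm7, a mu-class enzyme, measured 3.86, 3.41 and 3.53 FPKM with busulfan plus L.J. and 11.1, 11.92 and 5.57 FPKM with busulfan (log2 change -1.13, adjusted p = 0.0374, limma). The theta-class enzyme Gstt1 measured 39.74, 67.34 and 80.18 FPKM with busulfan plus L.J. and 135.28, 123.19 and 97.71 FPKM with busulfan (-0.96, adjusted p = 0.0495). Gstt3, of the same class, changed by -0.56 (adjusted p = 0.0445).

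Genes that make or recycle glutathione showed no call. Of 13 such genes 11 were tested, among them both subunits of glutamate-cysteine ligase, and the median log2 change under busulfan was -0.032. Of 14 genes of mercapturate formation and conjugate export 13 were tested, with none called under busulfan and a median of -0.261. With busulfan plus L.J. against busulfan 1 of them, Ggt6 of the gamma-glutamyltransferase family, fell (-1.92, adjusted p = 0.0491, limma). Ggt6 measured 0.46, 4.12 and 3.69 FPKM with busulfan plus L.J. and 9.45, 14.26 and 10.8 FPKM with busulfan. Of 9 other genes of leukotriene synthesis and the same membrane family 4 were tested and none was called in either comparison, with a median of 0.284 under busulfan.

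Of 13 genes of the NRF2 response 12 were tested and none was called in either comparison. Their median log2 change under busulfan was 0.168, against 1.15 for the members and 0.083 for all genes. The median covers moves in both directions: 8 of the 12 changes were positive and the rest were not. Cbr1 measured 55.9, 81.57 and 23.61 FPKM with busulfan and 24.61, 21.63 and 29.91 FPKM in controls. Nqo1 measured 27.62, 36.86 and 21.28 FPKM with busulfan and 16.69, 20.84 and 20.31 FPKM in controls. Ephx1 was at 28.06, 51.92 and 19.08 FPKM with busulfan and 17.95, 16.45 and 15.62 FPKM in controls. Hmox1 went the other way in the first 2 busulfan libraries, at 9.87, 10.18 and 37.71 FPKM, against 34.77, 33.92 and 27.1 FPKM in controls. In the other 3 comparisons none of the genes of these 5 lists was called.

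For the 4 members with the largest spread of group means, the 3 genes of most similar pattern were found. The measure was the mean absolute difference of their log2 profiles over the 12 libraries. Each profile was taken relative to that gene's mean in the control libraries. Nearest to Mgst1 were Foxq1, a forkhead transcription factor (0.224), Gpc3, a glypican (0.243), and Bhlhe40, a transcriptional repressor (0.246). Foxq1 measured 9.65, 16.38 and 3.62 FPKM with busulfan and 2.94, 3.29 and 3.40 FPKM in controls. In the third busulfan library Foxq1 was little above the controls, while Mgst1 was well above them. Nearest to Gsta3 were Ier3, an immediate early response gene (0.223), the transferase Gstm7 (0.231) and the ribosomal protein gene Rps28 (0.237). Gsta1 was nearest to Tldc2 (0.255), the aldo-keto reductase Akr1c19 (0.256) and the cytochrome P450 Cyp2d26 (0.270). Gsta2 was nearest to Gc, the vitamin D binding protein (0.321), to its cluster neighbour Gm10639 (0.330) and to Tldc2 (0.351). Akr1c19 measured 27.06, 31.01 and 8.19 FPKM with busulfan and 6.89, 7.49 and 9.79 FPKM in controls.

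Markers of the nephron's segments and of other cells were summed as FPKM per library, since the members differ in which cells make them. Proximal tubule markers, 10 genes, summed to 4444 to 5630 FPKM with busulfan, 4816 to 5982 with busulfan plus L.J., 5403 to 5609 with L.J. alone and 4427 to 5554 in controls. Slc34a1 alone made up 50.07% to 61.67% of this sum, so the sum says little about the other markers. None of the 10 was called under busulfan. With busulfan plus L.J. against busulfan 1 of the 10, Slc13a3, was lower. Collecting duct markers summed to 309.9 to 550.4 FPKM with busulfan, 263.5 to 292.9 with busulfan plus L.J., 219.1 to 265.7 with L.J. alone and 272.8 to 284.6 in controls, with 2 of 10, Hsd11b2 and Scnn1a, higher under busulfan and a median log2 change of 0.712. With busulfan plus L.J. against busulfan 4 of the 10 were lower (Hsd11b2, Scnn1a, Atp6v1g3 and Rhcg), with a median of -0.754. Markers of the thick ascending limb and distal convoluted tubule summed to 1325 to 2207 FPKM with busulfan, 1119 to 1439 with busulfan plus L.J., 934.6 to 1233 with L.J. alone and 1155 to 1681 in controls. Umod alone made up 52.01% to 63.3% of this sum. Of these 8 markers 1, Wnk4, was higher under busulfan, and the same gene was lower with busulfan plus L.J. than with busulfan. Podocyte and endothelial markers summed to 140.3 to 167.7 FPKM with busulfan, 104.4 to 159.1 with busulfan plus L.J., 102 to 173.9 with L.J. alone and 136.3 to 182.2 in controls. The part of these shifts in the members' levels was not tested.

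Ltc4s is best known from blood-derived cells, and markers of these were summed as well. Those of mast cells, eosinophils and basophils summed to 2.71 to 6.13 FPKM with busulfan, 2.86 to 3.5 with busulfan plus L.J., 2.19 to 3.11 with L.J. alone and 2.53 to 2.87 in controls, of which Kit alone made up 71.69% to 90.91%. Only 1 of these 10 genes was tested, and Prg2, Epx, Siglecf and Mcpt8 were listed at 0 in 10 or 11 of the 12 libraries. Macrophage and neutrophil markers summed to 91.38 to 170.9 FPKM with busulfan, 48.57 to 80.79 with busulfan plus L.J., 62.39 to 72.21 with L.J. alone and 63.83 to 81.9 in controls. None of the 10 was called under busulfan, and their median log2 change was 0.155, against 0.083 over all tested genes. S100a9 made up 23.41% and 30.34% of the sums of the first and second busulfan libraries. S100a8 and S100a9 reached 44.05 and 51.85 FPKM, against medians of 0.89 and 1.495 FPKM over the 12 libraries. Of these markers S100a8 and S100a9 were lower with busulfan plus L.J. than with busulfan. The part of these cells in the Ltc4s values was not tested.

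Liver also makes much alpha-class enzyme, and hepatocyte markers varied between libraries. Without Cyp2e1, which kidney also expresses and which made up 93.5% to 99.6% of the sum, the other 7 hepatocyte markers summed to 48.94, 33.18 and 72.74 FPKM with busulfan, 12.3, 15.06 and 9.25 with busulfan plus L.J., 6.44, 11.18 and 14.63 with L.J. alone and 31.9, 83.55 and 42.86 in controls. The sums with busulfan overlapped with those in controls, and all lay above those with busulfan plus L.J. The 7 tested hepatocyte markers are a different set, with Cyp2e1 and without Cps1, which did not exceed 0.44 FPKM. With busulfan plus L.J. against busulfan 5 of these 7 fell (Alb, Apoa1, Apoa2, Fgb and Ttr), with a median log2 change of -1.54. With L.J. alone against control the median was -1.57 with no call. The part of liver RNA in the members' values was not tested. Of the adrenal markers Cyp11b1, Cyp11b2 and Nr5a1 were listed at 0 in all 12 libraries. Fat markers summed to 7.08 to 23.14 FPKM with busulfan, 4.3 to 79.78 with busulfan plus L.J., 10.3 to 56.71 with L.J. alone and 5.97 to 33.42 in controls.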

How the data were processed

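RNA from 12 kidney samples was measured as 1 table of genes. Per the file headers the deposited values are FPKM, with no read counts, so depth is unknown; the column sums were 481937 to 541844. The submitters' processing notes name Bowtie 0.12.2 and mm10; for the counting step and annotation the sources used here give nothing. Groups came from the labels' descriptions and replicate numbers from the titles.

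Symbols stored as dates (26) were replaced by the RefSeq symbol of the same gene identifier where one was found. After that, 1 repeated symbol was dropped, and 20841 identifiers were found in RefSeq. FPKM values were taken as log2(FPKM + 1), genes with at least 1 FPKM in at least 3 libraries were kept, and limma 3.58.1 with trend (R 4.3.3) was fitted to all 12 libraries, two-sided, with Benjamini-Hochberg adjustment over all tested genes. The fit was tested on simulated data. Tables and figures used Python 3.11.15, pandas 2.3.3, numpy 2.4.6 and matplotlib 3.10.9, and alignments Biopython 1.88. Promoters and loci are from RefSeq (GRCm38.p6); motifs were picked after the promoters were seen.

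The members and all 14 lists (5 of pathways, 9 of markers) were chosen with earlier results of these data known. Genes named in the text were all members, up to 3 called genes per pathway list and comparison, markers at 0 or making up most of a list's sum, and the 3 nearest genes to each of 4 members. Called genes of the marker lists, and Cbr1, Nqo1, Ephx1 and Hmox1, were named after their values were seen.

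Alternatives were quantile normalization, a pseudocount of 0.1, no filter, a replicate block, only the groups compared, library weights, a correction for length and GC content, and leaving out each library.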

Additional observations from a re-analysis of the deposited data

How the results depend on the processing

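No log2 change of a tested member changed sign under busulfan, with busulfan plus L.J. against busulfan, or in the interaction, in any alternative tried; calls moved in many. Under busulfan the members called numbered 0 with no filter, with only the groups compared and with the length and GC correction, and 7 with library weights; genes called numbered 55, 0, 0 and 4967 in these settings and 503 with quantile normalization. For busulfan plus L.J. against busulfan the members called numbered 1, 0, 0 and 6 in the same settings and genes called 150, 2, 0 and 4674, with 656 under quantile normalization. Leaving out a library gave 0 to 7 members and 0 to 3989 genes under busulfan, 0 to 7 members and 1 to 3880 genes with busulfan plus L.J. against busulfan, and 0 to 3 members and 0 to 1489 genes in the interaction; the highest of each came without the third busulfan library. The interaction had 6 members and 2194 genes with library weights, 1 gene with no filter, and 0 genes with the pseudocount of 0.1, quantile normalization and the length and GC correction. L.J. alone against control had 19 genes with library weights and 0 to 1 with a library left out. Busulfan plus L.J. against control had 4 genes with library weights, 0 with the pseudocount of 0.1, no filter or only the groups compared, and 0 to 2 with a library left out. The causes were not tested, apart from the fewer samples or added genes these settings have by construction.

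Over all tested genes, same-numbered libraries had correlations of deviations from -0.239 to 0.0813, and differently numbered ones from -0.146 to 0.190. Single genes can differ from this. Gsta2 rose with the replicate number in the control libraries (13.66, 19.42 and 40.83 FPKM), and likewise with L.J. alone and with busulfan plus L.J. Whether same-numbered libraries share a batch is not given and was not tested. With the number as a block 0 members and 11 genes were called under busulfan, 0 members and 4 genes with busulfan plus L.J. against busulfan, 0 genes with busulfan plus L.J. against control and 0 genes in the interaction.

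Signs turned only for log2 changes near 0. For L.J. alone against control, Gsta1 was 0.0848 with library weights and -0.277 to 0.190 with a library left out, Gsta2 -0.257 to 0.520 and Mgst1 -0.108 to 0.226. For busulfan plus L.J. against control, Gsta1 was 0.0138 with quantile normalization, 0.164 with library weights, 0.0535 with the length and GC correction and -0.217 to 0.271 with a library left out. There Gsta2 ranged from -0.203 to 0.554, Gsta4 from -0.414 to 0.116 and Mgst3 from -0.169 to 0.244 with a library left out.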
